A study of Mus musculus with 18 samples.

Results

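The genes described here are 34 markers of endothelium, the cell layer that lines blood and lymph vessels, measured in mouse nasal mucosa. They were chosen by name, as markers of all endothelium, of arteries, of veins and of lymphatics, and not by their measured values. Earlier results of these data were, however, known when the list was made. All 34 are among the 54532 genes of the count table, each on 1 row, and all 34 passed the filter on low counts that kept 18291 genes for testing; the lowest count of any of them in any library was 5. Whole-tissue RNA was sequenced from 3 groups of 6 libraries, at 15883573 to 18433866 counts per library. CRS stands for a model of chronic rhinosinusitis, long-term inflammation of the nose and sinuses, in which papain, a plant protease, was given intranasally (20 µg in 20 µL) from day 0 to day 2 and from day 7 to day 11. Mice of the C10 group received the compound C10, described in the series title as an inhibitor of the DNA repair and redox protein APE1, at 10 mg/mL and 10 µL per side once daily for 10 days, starting with the papain. They are taken to have had papain as well, since the protocol describes the compound as a treatment of the papain model. What the control group (CON) received is not given in the labels, nor are strain, age, sex or a vehicle control. Nor do they state that the libraries are separate mice, and the p-values below therefore refer to the spread between libraries.

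Endothelial cells are held together by junction proteins such as VE-cadherin, and their growth and rest are set by receptor pairs on the vessel surface: the angiopoietin receptor Tek with Tie1, and the bone morphogenetic protein receptor Acvrl1 with its co-receptor endoglin. ETS factors such as Erg and the SOXF factors Sox7, Sox17 and Sox18 keep many of their genes active. The nasal mucosa is rich in fenestrated capillaries, whose pores carry diaphragms built of Plvap, and in venous sinusoids that swell and empty to set the airway's width.

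Because Erg and the SOXF factors act on many endothelial genes, promoter sequences were searched for their short core motifs. RefSeq windows on the GRCm38.p6 build were kept for 15 of the 34 genes, 20 windows in all, and the 250 bases before each start were searched on both strands. Any window of Ecscr was left out before these counts were made, while the set of all windows was not cut in the same way. The ETS core AGGAAG was present in 11 of the 20 windows (55%), in 10 of the 15 genes, against 29.5% of all 32851 windows. The SOX core ACAAT was present in 8 of the 20 windows (40%), against 27.7% of all windows. A match describes letters in a window and does not show binding. Below are 4 windows, printed 5′ to 3′ on the strand of the gene, with every match of either core, on either strand, in capitals. They are shown as examples of windows with ETS matches (Eng and Adgrl4), with SOX matches only (Tek) and with neither (Cldn5). Whether matches and differences went together was not tested. Among the windows not shown, those of Egfl7 held 3, 1 and 0 ETS matches, and that of Clec14a held 0 ETS matches and 1 SOX match.
Eng, chr2:32646345-32646594, plus strand: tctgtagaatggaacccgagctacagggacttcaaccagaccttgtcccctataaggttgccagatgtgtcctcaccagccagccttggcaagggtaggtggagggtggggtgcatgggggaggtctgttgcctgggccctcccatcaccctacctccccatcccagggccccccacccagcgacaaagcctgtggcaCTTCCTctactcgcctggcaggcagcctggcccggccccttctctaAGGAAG
Adgrl4, chr3:151437632-151437881, plus strand: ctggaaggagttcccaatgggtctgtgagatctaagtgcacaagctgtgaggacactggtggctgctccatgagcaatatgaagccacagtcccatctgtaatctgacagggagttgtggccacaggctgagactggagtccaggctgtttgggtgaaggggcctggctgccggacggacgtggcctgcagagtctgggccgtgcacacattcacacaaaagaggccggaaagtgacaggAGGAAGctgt
Tek, chr4:94739039-94739288, plus strand: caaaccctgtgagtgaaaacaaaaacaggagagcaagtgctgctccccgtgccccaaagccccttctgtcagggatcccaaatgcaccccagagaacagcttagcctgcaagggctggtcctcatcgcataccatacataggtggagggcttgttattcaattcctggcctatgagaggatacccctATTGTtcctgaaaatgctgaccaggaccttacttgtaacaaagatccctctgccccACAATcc
Cldn5, chr16:18776597-18776846, plus strand: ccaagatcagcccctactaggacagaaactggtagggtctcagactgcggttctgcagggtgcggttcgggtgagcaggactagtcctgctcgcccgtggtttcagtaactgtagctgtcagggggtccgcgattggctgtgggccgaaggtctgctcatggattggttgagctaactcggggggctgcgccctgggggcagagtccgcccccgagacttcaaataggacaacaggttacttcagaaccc
The Eng window holds 2 ETS matches, one of which ends at the base just before the start, the Adgrl4 window holds 1, and the Tek window holds 2 SOX matches.

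In control mucosa the levels of the 34 genes, compared with each other by the deposited FPKM because that unit is per length, spanned from 59.7 ± 13.2 for Plvap to 0.597 ± 0.222 for Gja5 (mean ± SD, n = 6). Cldn5, a tight junction protein, followed Plvap at 47.3 ± 6.20 FPKM, and Eng, the endoglin gene, was the third at 33.2 ± 6.92. Cdh5 at 15.2 ± 3.64, Vwf at 12.9 ± 3.65 and S1pr1 at 12.5 ± 3.39 FPKM came next, and these 3 neighbours differed by less than their SDs. At the low end stood the lymphatic genes Lyve1 (1.31 ± 0.989) and Prox1 (0.876 ± 0.0712). Markers of capillaries, arteries and lymphatics were all detected in every library.

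Compared with CON, most endothelial genes were lower in CRS on average, but in no single gene was the difference large enough against the spread between libraries to pass the test. The log2 fold change was below 0 for 32 of the 34 genes, with a median of -0.42 and a range of -0.82 to 0.15, whereas over all genes tested it was below 0 for 49.2% and its median was 0.0045. With edgeR's quasi-likelihood test, 0 of the 34 had an adjusted p under 0.05 (range 0.206 to 0.991), beside 0.00547% of all genes tested. At an unadjusted p under 0.05, 7 of the 34 were lower and 0 higher, where 6.3% of all genes were lower. That count was 14 without CON 1, 26 without CRS 1, 17 with the replicate number as a block, 12 with DESeq2, 25 with limma-voom and 2 without CRS 2 and CRS 5 together. The number lower over all genes changed as well. It was 1210 of 18462 without CON 1, 2400 of 18452 without CRS 1 and 804 of 18691 without CRS 2 and CRS 5. Of 18291 genes, 1379 were lower with the block, 1151 with DESeq2 and 2433 with limma-voom. In 1 of the 34, Tmem100, all 6 CRS libraries lay below all 6 CON libraries, which was so for 0.279% of all genes. In whole tissue, fewer endothelial cells, less RNA per endothelial cell and a different mix of tissue in the libraries cannot be told apart.

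**Figure D1:**
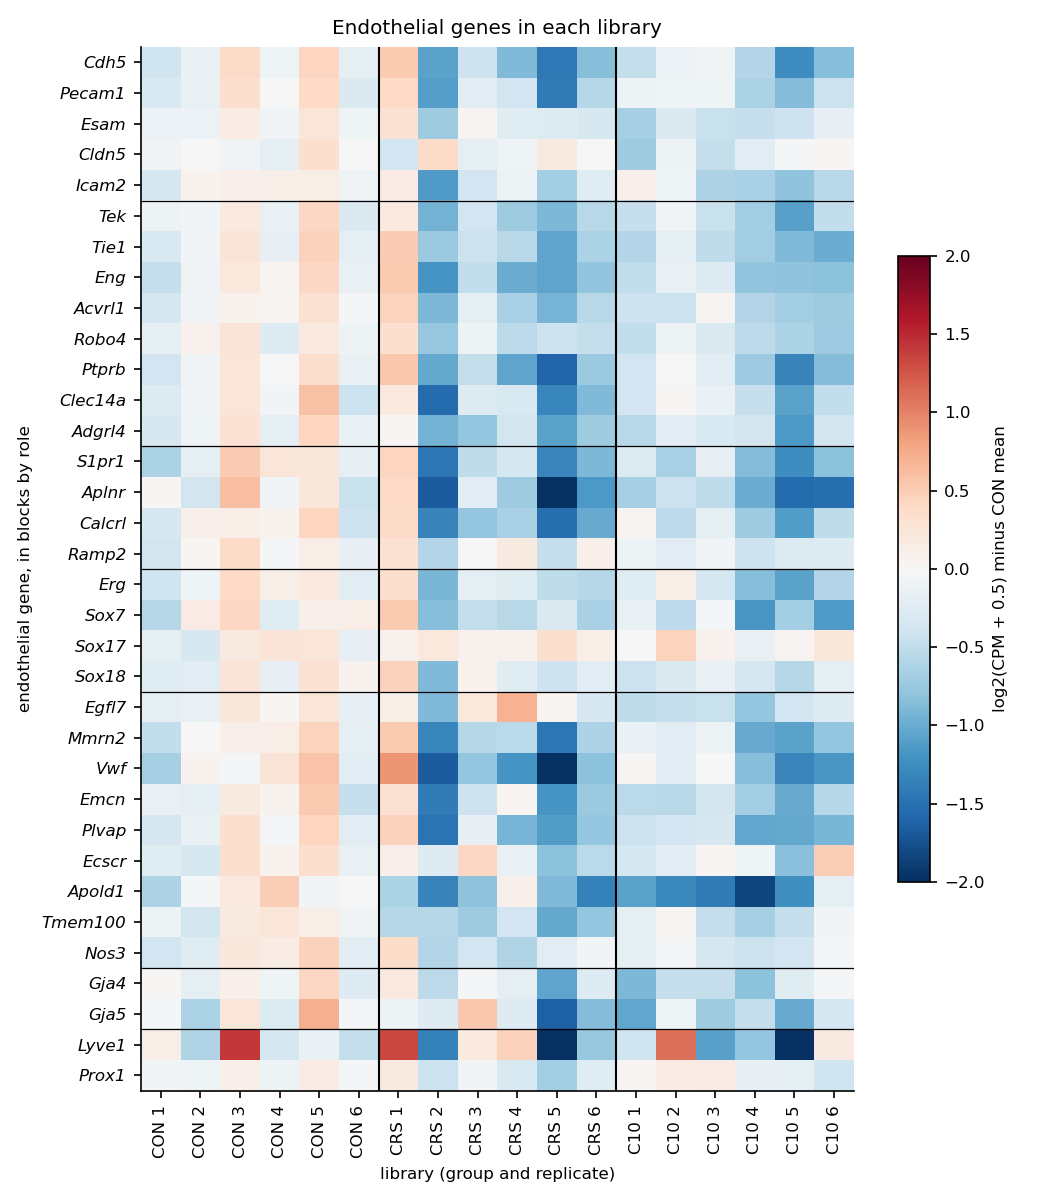
Heat map of the 34 endothelial genes (rows, by role) in the 18 libraries (columns, by group); colour is log2(CPM + 0.5) minus the CON mean of that gene, and values past the ends of the scale take the end colour. CRS 1 is high and CRS 2 and CRS 5 are low across most rows, and most C10 libraries lie below the CON mean.

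Junction and adhesion genes were all below 0 in CRS against CON (5 of 5, median log2 fold change -0.37), and none passed. Cdh5, the gene of VE-cadherin (chromosome 8, 104101625 to 104144511, plus strand, mm10), ranged over 47.5, 58.3 and 84.6 CPM in CON (lowest, median and highest library), over 23.1, 34.3 and 90.5 in CRS and over 26.3, 43.3 and 59.7 in C10. In CRS, 5 of 6 libraries lay below the CON median while CRS 1 lay above every CON library, so that the groups overlapped. Its log2 fold change in CRS against CON was -0.58 ± 0.28 (SE; edgeR adjusted p = 0.362). Pecam1, an adhesion molecule of endothelial junctions and platelets, gave -0.46 ± 0.24. Icam2, a ligand of leukocyte integrins, gave -0.37 ± 0.22 and Esam, a further junction protein, -0.18 ± 0.13. Cldn5 was the exception to the size of these differences, at -0.00 ± 0.14, with a CON range of 58.6 to 84.3 CPM and a CRS range of 51.4 to 87.8. Within CRS, Cldn5 was highest in CRS 2 and lowest in CRS 1, whereas CRS 1 was the highest CRS library for the other 4 junction genes.

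Receptors of vessel growth and stability were below 0 in 8 of 8, with a median of -0.54; 4 of the 8 had an unadjusted p under 0.05 and 0 passed after adjustment. Adgrl4, an adhesion G protein coupled receptor of vessels (chromosome 3, 151437887 to 151545086, plus strand), had 13.8, 16.2 and 23.8 CPM in CON, 8.02, 10.2 and 17.7 in CRS and 7.64, 13.5 and 15.1 in C10. All CRS libraries but CRS 1 were below the lowest CON library. Its log2 fold change was -0.64 ± 0.20, a 1.56-fold lower level (edgeR adjusted p = 0.226). Tek (chromosome 4, 94739289 to 94874976, plus strand) had 17.4, 20.1 and 28.4 CPM in CON, 10.9, 13.6 and 24.5 in CRS and 9.76, 15.2 and 20.2 in C10. Here too 5 CRS libraries lay below every CON library and CRS 1 among the higher CON values. The difference was -0.53 ± 0.20 (edgeR adjusted p = 0.26). Tie1, its partner receptor, gave -0.43 ± 0.22.

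Eng (chromosome 2, 32646595 to 32682669, plus strand), which presents bone morphogenetic proteins to Acvrl1, had 96.7, 132.8 and 177 CPM in CON, 58.2, 71.7 and 192 in CRS and 75.3, 85.7 and 120.1 in C10. CRS 1 held the highest value of all 18 libraries, and the other 5 CRS libraries lay below the lowest CON library. The log2 fold change was -0.56 ± 0.25 (edgeR adjusted p = 0.329), and that of Acvrl1 was -0.40 ± 0.21. Clec14a (chromosome 12, 58264720 to 58269290, minus strand), a lectin-like surface protein that binds Mmrn2, had 28.4, 37.1 and 58.2 CPM in CON, 13.0, 26.0 and 44.1 in CRS and 18.2, 28.7 and 39.2 in C10. The groups overlapped, with CRS 1 well inside the CON range, and the difference was -0.61 ± 0.26 (edgeR adjusted p = 0.313). Ptprb, the phosphatase that acts on Tek and VE-cadherin, gave -0.58 ± 0.29, and Robo4, a guidance receptor that steadies vessels, -0.30 ± 0.16.

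G protein coupled receptors and their partner were below 0 in 4 of 4, with a median of -0.65. Calcrl (chromosome 2, 84330626 to 84425411, minus strand), the receptor of adrenomedullin and of calcitonin gene-related peptide, had 20.2, 28.8 and 36.5 CPM in CON, 9.23, 14.4 and 35.4 in CRS and 12.2, 18.9 and 28.1 in C10. Each CRS library other than CRS 1 was under the lowest CON library. The log2 fold change was -0.71 ± 0.27, a 1.64-fold lower level (edgeR adjusted p = 0.275). Ramp2, the accessory protein that makes Calcrl an adrenomedullin receptor, was at -0.06 ± 0.15, with 12.8 to 21.8 CPM in CON and 10.9 to 20.7 in CRS. S1pr1 (chromosome 3, 115710433 to 115715072, minus strand), the sphingosine 1-phosphate receptor that tightens junctions, had 23.8, 38.3 and 52.9 CPM in CON, 13.4, 22.9 and 50.2 in CRS and 15.4, 22.1 and 33.2 in C10. Its groups overlapped, with CRS 1 again near the top of the CON range. It gave -0.59 ± 0.28 (edgeR adjusted p = 0.358), and Aplnr, the apelin receptor, -0.77 ± 0.38.

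Transcription factors differed least among the larger roles: 3 of 4 were below 0, with a median of -0.25. Erg was at -0.33 ± 0.22, Sox7 at -0.39 ± 0.29 and Sox18, which also acts in lymphatic development, at -0.17 ± 0.17. Sox17, an arterial factor, was at 0.15 ± 0.13 with 7.46 to 11.5 CPM in CON and 10.1 to 12.01 in CRS; it is also made in cells other than endothelium. The CRS values of Sox17 lay within a narrow range, unlike those of most other endothelial genes.

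Secreted, matrix and capillary surface genes were below 0 in 8 of 9, with a median of -0.54. Tmem100 (chromosome 11, 90030348 to 90036508, plus strand), a membrane protein switched on by Acvrl1 signalling, had 7.52, 10.1 and 11.8 CPM in CON, 4.59, 6.14 and 7.47 in CRS and 6.01, 7.75 and 10.1 in C10. Every CRS library lay below every CON library, CRS 1 included, while the C10 libraries overlapped both groups. The log2 fold change in CRS against CON was -0.71 ± 0.15, a 1.64-fold lower level, and did not pass with edgeR (adjusted p = 0.206). With DESeq2 it was -0.71 with an adjusted p of 0.00714, the only one of the 34 called by that tool, where 0.273% of all genes were called lower.

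Apold1 (chromosome 6, 134981718 to 134986836, plus strand), an early-response gene of endothelium, had 5.67, 8.92 and 12.9 CPM in CON, 3.21, 4.80 and 9.73 in CRS and 2.17, 3.47 and 7.90 in C10. CRS 4 and C10 6 were the high libraries of their groups, and without them no CRS or C10 library reached the lowest CON value. It had the largest fold change of the 34 in CRS against CON, -0.82 ± 0.30 or 1.76-fold lower (edgeR adjusted p = 0.256). Plvap (chromosome 8, 71497765 to 71511752, minus strand) had 93.2, 109.8 and 157 CPM in CON, 41.8, 65.0 and 162 in CRS and 56.8, 74.7 and 93.5 in C10. Its groups overlapped through the higher CRS libraries, and the difference was -0.54 ± 0.27 (edgeR adjusted p = 0.369). Vwf, the platelet-binding protein stored in endothelial granules, was the most variable of the group, from 38.1 CPM in CRS 5 to 372 in CRS 1, and gave -0.65 ± 0.42. Mmrn2, a matrix protein of vessels, gave -0.54 ± 0.28, and Emcn, a sialomucin of capillaries and veins, -0.48 ± 0.25. Smaller differences were seen in Nos3, the endothelial nitric oxide synthase (-0.25 ± 0.18), Ecscr, a surface protein (-0.18 ± 0.22), and Egfl7, a secreted matrix protein (0.04 ± 0.18).

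**Figure D2:**
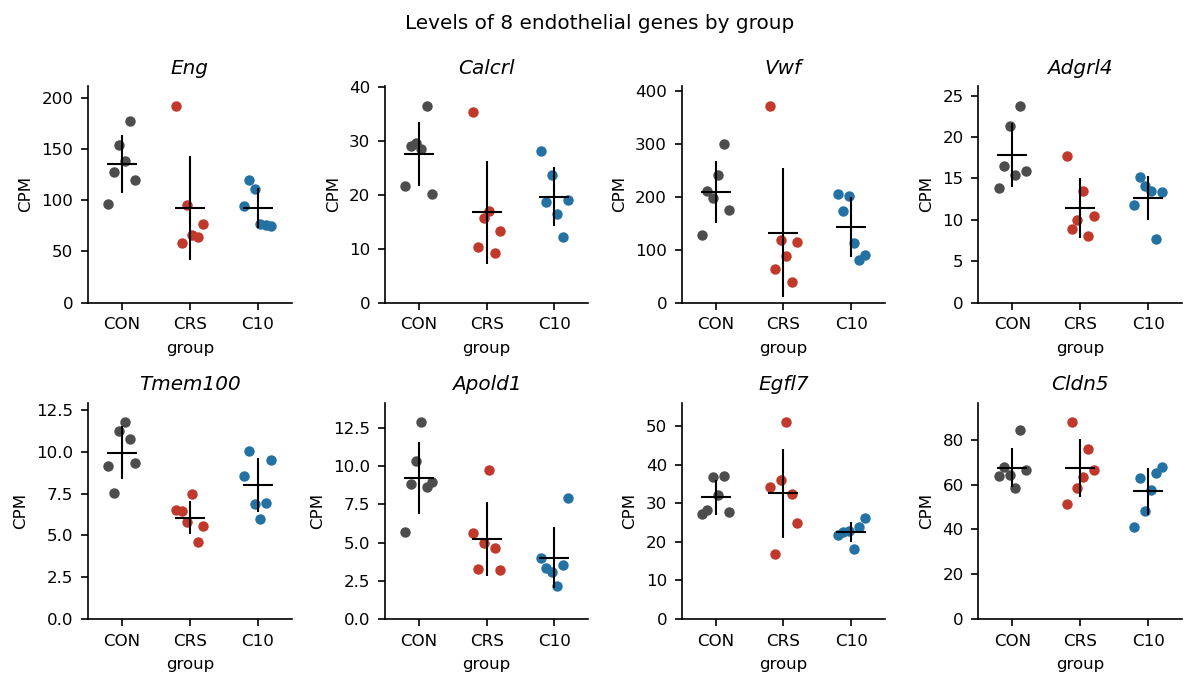
Level in CPM (vertical axes, linear, starting at 0) of 8 endothelial genes in CON, CRS and C10; each point is 1 library and the bars give the mean ± SD of 6. CRS 1 stands above the other CRS libraries for Eng, Calcrl and Vwf, whereas Tmem100 is below the CON range in all 6 CRS libraries.

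The arterial connexins Gja4 (-0.30 ± 0.21) and Gja5 (-0.41 ± 0.35), which couple endothelial cells through gap junctions, were below 0 in CRS, as were both lymphatic genes. Prox1, the factor that sets lymphatic identity, gave -0.25 ± 0.15. Lyve1, a hyaluronan receptor of lymphatics that some macrophages also carry, gave -0.15 ± 0.67 and ranged from 2.01 to 9.71 CPM in CON and from 0.362 to 9.17 in CRS, a spread too wide to show a difference. The gene models of 12 of the 34 overlap another gene of the table, and the library kit is not stated to keep strand. Gja5 is the most uncertain of these, because Gpr89, which overlaps it, held 6864 counts over all libraries against 836 for Gja5. Egfl7 overlaps Agpat2, Eng overlaps Fpgs and Plvap overlaps Gtpbp3, with 5246, 6873 and 5748 counts in those neighbours against 8917, 33119 and 28581 in the endothelial genes.

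The 6 CRS libraries differed from each other more than those of the other groups. CRS 1 was the highest CRS library in 27 of the 34 genes and the highest of all 18 in 15, and CRS 2 (14 genes) or CRS 5 (16 genes) was the lowest CRS library in 30. Summed over the 34 genes, CRS 1 reached 1690 CPM, CRS 2 604 and CRS 5 584; the CON libraries spanned 948 to 1625 CPM and the C10 libraries 654 to 1068. The median coefficient of variation over the genes was 43.2% in CRS, 21.2% in CON and 23.4% in C10, and it was 25.8% in CRS without CRS 1.

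Without CRS 1, 13 of the 34 genes were lower in CRS than in CON (edgeR adjusted p under 0.05), where 3.23% of the 18452 genes then tested were lower. CRS 1 was the highest CRS library in 27 of the 34, so leaving it out lowers the CRS mean of those genes. The calls of this fit are therefore not independent support for a difference. The median of the 34 became -0.70, and 31 were below 0. Markers of other cells passed in the same fit: 5 of 12 mural markers (median -0.64), 4 of 8 fibroblast markers (-0.93), 1 of 6 red blood cell markers (-1.23) and 1 of 8 macrophage markers (-0.70) were called lower. Their part in the endothelial values was not tested. Eng fell by 0.91 ± 0.17 on the log2 scale (edgeR adjusted p = 0.0143) and Calcrl by 1.08 ± 0.21 (0.0164). The other genes that passed were Tmem100, Adgrl4, Tie1, Ptprb, Cdh5, Tek, Vwf, Acvrl1, Plvap, Mmrn2 and S1pr1, with log2 fold changes from -1.30 (Vwf) to -0.65 (Acvrl1). Without CRS 2 and CRS 5 together, the 2 low libraries, the median was -0.18 and 29 of 34 were below 0. Of the 34, 0 passed, beside 1 of 18691 genes. At an unadjusted p under 0.05, 2 of the 34 were lower, where 804 of all genes were. Weighting libraries by their quality in limma-voom called 12 of the 34 lower (Eng, Plvap, Cdh5, Clec14a, S1pr1, Acvrl1, Calcrl, Emcn, Adgrl4, Tmem100, Apold1 and Aplnr), where 2.98% of all genes were lower by that tool. The number of endothelial genes called in CRS against CON thus differed between these fits, while their median was below 0 in each.

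**Figure D3:**
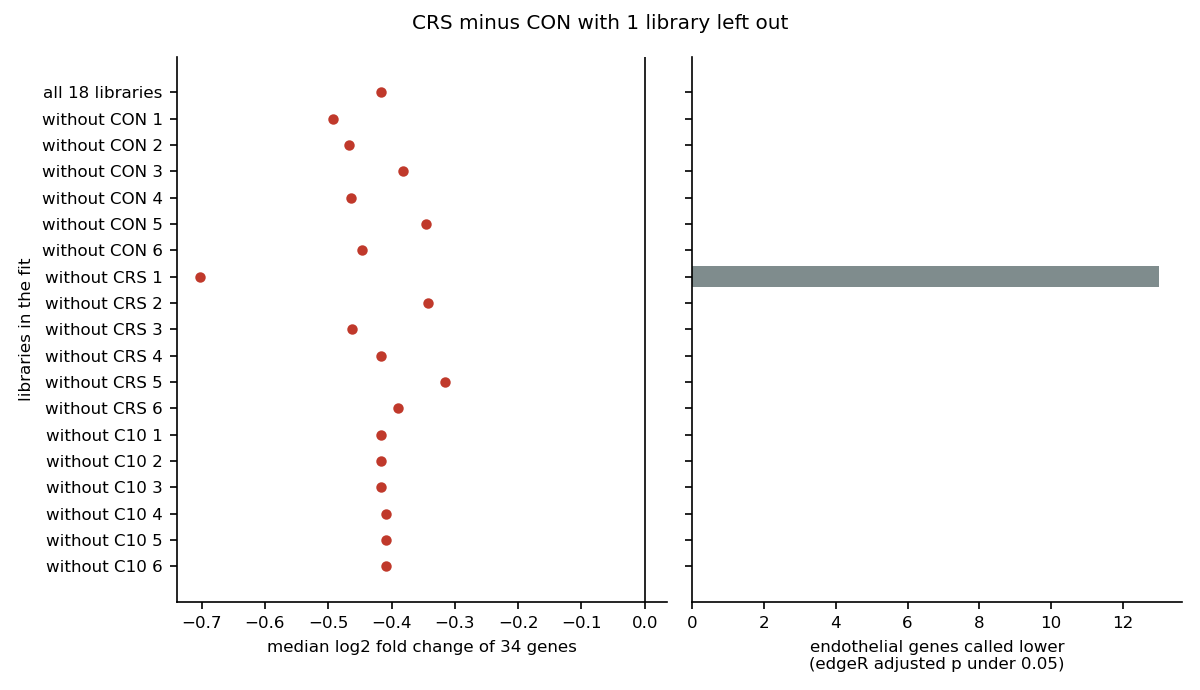
Effect of leaving out 1 library on CRS minus CON: the median log2 fold change of the 34 endothelial genes (left, log2 units) and the number called lower with edgeR (right). Only the fit without CRS 1 calls any of the 34 (13 genes), and the median stays below 0 in every fit.

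With papain and the compound C10, the endothelial genes stood on average close to their CRS levels. In C10 against CRS the log2 fold change was below 0 for 22 of 34, with a median of -0.08 and a range of -0.53 to 0.40, against 48.3% below 0 over all genes. None of the 34 passed with edgeR, DESeq2 or limma-voom (edgeR adjusted p from 0.223). Of all 18291 genes, DESeq2 called 350, limma-voom 548 and edgeR 15 (0.082%). At an unadjusted p under 0.05, 1 gene was lower, where 7.41% of all genes were, and 1 was higher, where 5.77% were. The direction of the median depended on single libraries and on the tool: it was 0.15 without CRS 1, with 10 of 34 below 0, -0.31 without CRS 2 and CRS 5 together, with 31 below 0, and 0.10 with limma-voom, with 11 below 0.

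The gene that was lower was Egfl7, whose values were 27.3, 30.2 and 36.9 CPM in CON, 16.7, 33.2 and 51.0 in CRS and 18.1, 22.7 and 26.1 in C10. All 6 C10 libraries lay below the lowest CON library but overlapped CRS through CRS 2 and CRS 6. Its log2 fold change in C10 against CRS was -0.53 ± 0.18 (edgeR adjusted p = 0.223). The gene that was higher was Tmem100, at 0.40 ± 0.15 (edgeR adjusted p = 0.269), from a mean of 6.06 ± 0.987 CPM in CRS to 7.99 ± 1.62 in C10 (SD, n = 6 each), with 9.96 ± 1.59 in CON. The next smallest p-values belonged to Esam (-0.24 ± 0.13), Cldn5 (-0.24 ± 0.14), Apold1 (-0.38 ± 0.30), Prox1 (0.18 ± 0.15), Ramp2 (-0.18 ± 0.15) and Robo4 (-0.17 ± 0.17), none of which passed.

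Compared with CON, the C10 group was also lower in most endothelial genes. The log2 fold change was below 0 for 33 of 34, with a median of -0.49 and a range of -1.20 to 0.11 (all genes tested, 47.4% below 0). With edgeR 0 of the 34 passed (adjusted p from 0.131 to 0.889), beside 0.159% of all genes, and 17 were lower at an unadjusted p under 0.05, where 6.83% of all genes were. That count was 11 without CON 3, without CON 5, without C10 4 or without C10 5, and 25 without CRS 2 and CRS 5 together. Over all genes, those lower numbered 983 of 18447 without CON 3 and 956 of 18437 without CON 5. They numbered 1006 of 18446 without C10 4, 1105 of 18461 without C10 5 and 1554 of 18691 without CRS 2 and CRS 5. This comparison shares its CON libraries with that of CRS against CON, so the 2 are not independent. By role, 8 of 8 receptors of vessel growth (median -0.52), 5 of 5 junction genes (-0.42), 4 of 4 G protein coupled receptors and their partner (-0.59), 9 of 9 secreted and surface genes (-0.53), 2 of 2 connexins (-0.63) and 2 of 2 lymphatic genes (-0.25) were below 0, and 3 of 4 transcription factors (-0.41).

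The smallest p in C10 against CON was that of Apold1, at -1.20 ± 0.30 or 2.30-fold lower, from 9.24 ± 2.36 to 4.02 ± 2.00 CPM (edgeR adjusted p = 0.131). Only C10 6 reached into the CON range. DESeq2 called Apold1 (-1.21, adjusted p = 0.0130) and limma-voom called it too (-1.46, adjusted p = 0.00932), in each case the only one of the 34, where 1.08% and 0.847% of all genes were called lower by those tools. In 2 of the 34, Esam and Egfl7, all 6 C10 libraries were below all 6 CON libraries, which was so for 1.08% of all genes. Esam had 22.6, 23.3 and 29.0 CPM in CON and 15.3, 18.1 and 21.8 in C10, a difference of -0.42 ± 0.13 (edgeR adjusted p = 0.206). The others with the smallest p were Tie1 (-0.65 ± 0.22), Robo4 (-0.47 ± 0.17), Tek (-0.54 ± 0.20), Emcn (-0.66 ± 0.25), Egfl7 (-0.48 ± 0.18) and Aplnr (-1.0 ± 0.38), all with an edgeR adjusted p above 0.05.

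**Figure D4:**
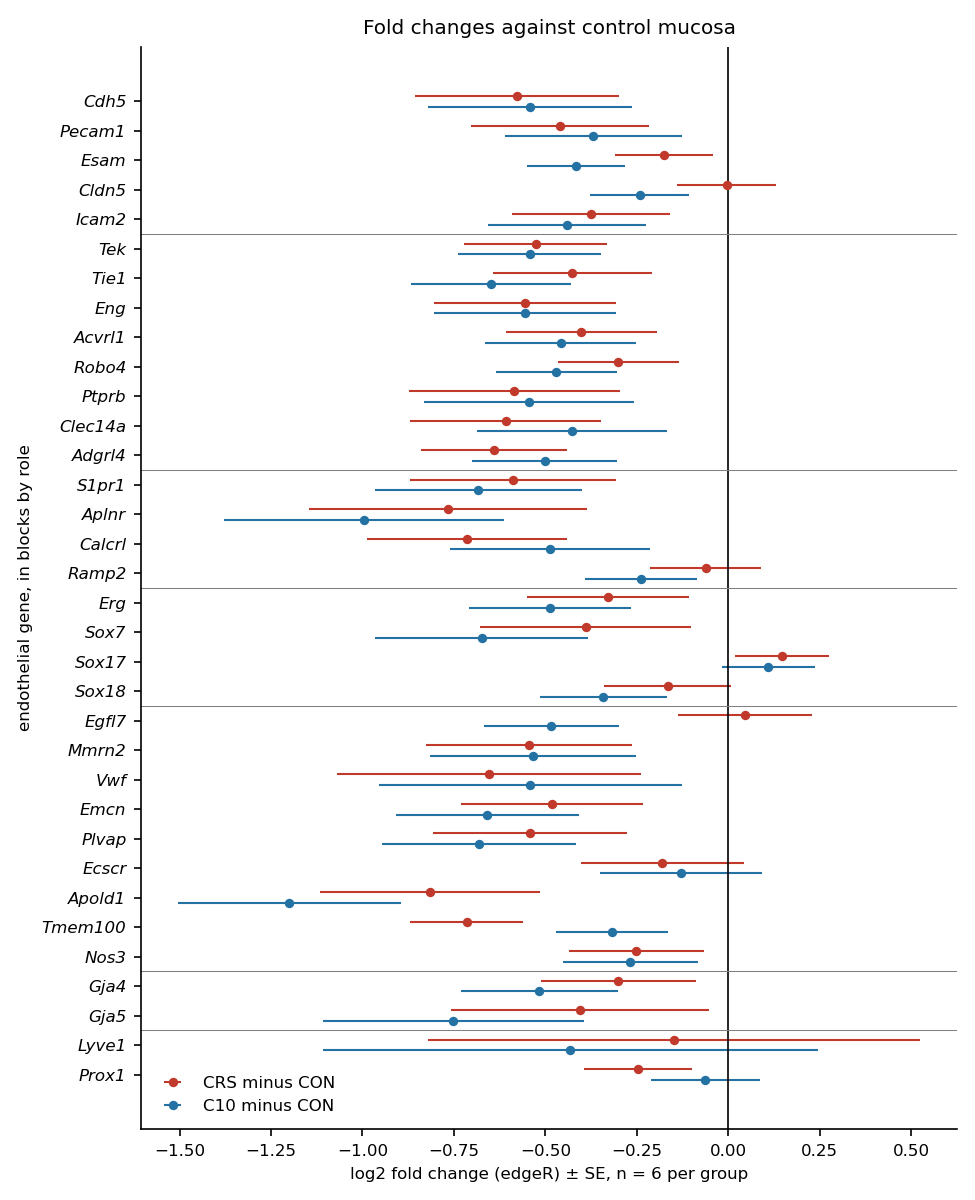
Log2 fold change ± SE (horizontal axis) of the 34 endothelial genes (rows, by role) in CRS minus CON and in C10 minus CON, both from the edgeR fit on 18 libraries. Most points lie left of 0 in both comparisons, which share the CON libraries. In CRS minus CON, Cldn5, Egfl7 and Ramp2 lie closest to 0, and Sox17 is the highest of the 34.

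Most of the 34 genes rose and fell together from library to library. After removing the group means, the median Pearson r of log2 CPM over the 561 pairs of genes was 0.64 (n = 18 libraries; range -0.68 to 0.98; both genes of a pair share each library's depth and mix of tissue), and it was 0.54 without CRS 1 and CRS 5, the 2 libraries farthest from their group means. For 21 genes, r with the mean of the other 33 was over 0.8; Pecam1 (0.98), Clec14a (0.95) and Cdh5 (0.93) followed it most closely. Cldn5 (-0.51), Sox17 (0.21), Apold1 (0.31), Egfl7 (0.49) and Tmem100 (0.50) followed it least. Tmem100 and Apold1, the genes of smallest p in CRS and C10 against CON, are thus among those whose values followed the common pattern of the list least.

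Markers of other cells of the mucosa moved over the same libraries, and their part in the endothelial values was not tested. The summed level of 8 fibroblast markers was 3476 to 11151 CPM in CON, 2203 to 7574 in CRS (the highest in CRS 1) and 2207 to 4792 in C10, and 8 of 8 were below 0 in both comparisons with CON (medians -0.61 and -0.89). Of 12 markers of mural cells, the smooth muscle and pericytes around vessels, 10 were below 0 in CRS (median -0.44; 1811 to 2205 CPM summed in CON, 1449 to 1950 in CRS, 1447 to 1915 in C10) and 11 in C10 (median -0.53). Red blood cell markers were below 0 in 6 of 6 in both (medians -1.19 and -1.06; 145 to 1180 CPM in CON, 75.6 to 326 in CRS, 72.4 to 359 in C10). All 8 macrophage markers tested were below 0 in both (medians -0.40 and -0.83; 458 to 1140 CPM in CON, 206 to 1136 in CRS, 297 to 638 in C10).

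Leukocyte markers were below 0 in 3 of 4 in both comparisons (medians -0.26 and -0.14; 292 to 719 CPM in CON, 89.2 to 876 in CRS, 274 to 616 in C10), and platelet markers in 4 of the 5 tested (-0.53 and -0.27; 16.5 to 46.1, 18.2 to 35.4 and 17.0 to 32.1 CPM). Olfactory neuron markers went the other way, with 0 of 7 below 0 in CRS and 0 of 7 in C10 (medians 0.24 and 0.25). Their sum was 3306 CPM in CRS 1, the lowest of CRS, and 8443 in CRS 2 and 8116 in CRS 5, the highest of all 18 libraries. The CON libraries spanned 2856 to 6960 CPM and the C10 libraries 4226 to 7342. Gland markers were below 0 in 0 of 9 in CRS and 2 of 9 in C10 (medians 0.55 and 0.26; 19559 to 72614 CPM in CON, 18787 to 136702 in CRS, 26966 to 107722 in C10). Ciliated cell markers were below 0 in 5 of 6 and 3 of 6 (medians -0.40 and 0.01; 490 to 718, 347 to 542 and 378 to 764 CPM) and airway epithelial markers in 0 of 6 and 4 of 6 (0.19 and -0.06; 1737 to 1962, 1859 to 2302 and 1675 to 1949 CPM). With all 18 libraries, no marker of any list passed with edgeR in CRS or C10 against CON, and none was at 0 in all libraries. Without CRS 1, the lists with markers called lower in CRS against CON were mural cells (5), fibroblasts (4), red blood cells (1) and macrophages (1).

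**Figure D5:**
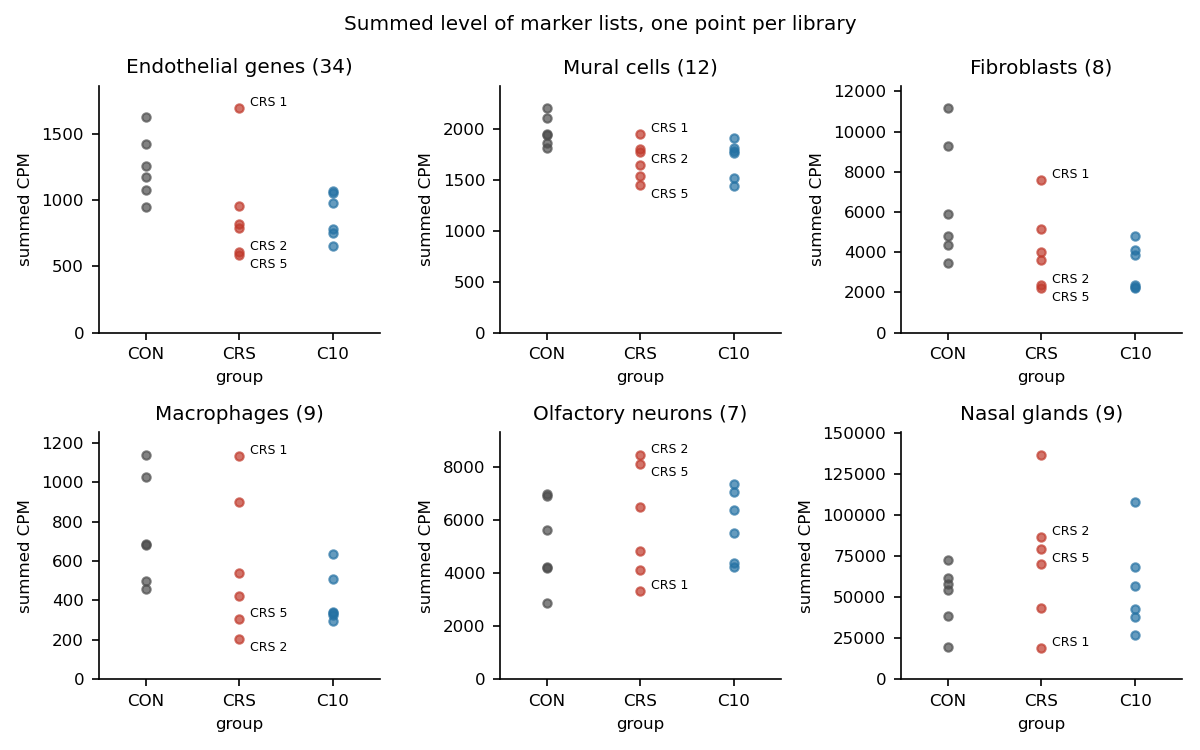
Summed CPM (vertical axes, starting at 0) of the endothelial genes and of 5 marker lists in each library, by group, with CRS 1, CRS 2 and CRS 5 labelled. CRS 1 is the highest CRS library for endothelial, mural, fibroblast and macrophage genes and the lowest for olfactory neuron genes, where CRS 2 and CRS 5 are the highest.

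Ligands, further receptors and targets of the same pathways were read from a list of 50 partner genes, of which 47 gave a test. In CRS against CON 40 of 47 were below 0 (median -0.22), against 49.2% of all genes tested. Of the 47, 0 passed, beside 0.00547% of all genes. The smallest p belonged to Nrarp, a Notch target, at -0.83 ± 0.17, followed by Smad6, an inhibitor of bone morphogenetic protein signalling (-0.37 ± 0.10), Nrp1, a co-receptor of vascular endothelial growth factor (-0.59 ± 0.17), and Angpt2, a ligand of Tek (-0.50 ± 0.17). In C10 against CON 41 of 47 were below 0 (median -0.30), against 47.4% of all genes, and 0 passed, beside 0.159% of all genes. There the smallest p belonged to Vegfb (-0.38 ± 0.09), Smad6 (-0.37 ± 0.10), Angpt2 (-0.57 ± 0.17) and Mcam, an adhesion molecule of endothelium and pericytes (-0.65 ± 0.21).

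In C10 against CRS 28 of 47 partner genes were below 0 (median -0.06), against 48.3% of all genes. Of the 47, 1 passed, beside 0.082% of all genes. Vegfb, a growth factor that binds Flt1, was 32.9 ± 2.52 CPM in CRS and 22.7 ± 1.38 in C10 (SD, n = 6 each), with 29.6 ± 5.02 in CON. It fell by 0.54 ± 0.09 on the log2 scale (edgeR adjusted p = 0.0290), and no C10 library overlapped CRS. Nrarp, at 4.23 ± 0.792 CPM in CRS and 7.82 ± 1.74 in C10, gave 0.89 ± 0.17, and all C10 libraries were above all CRS libraries, but it did not pass (edgeR adjusted p = 0.0575). The share of all genes without overlap is not given for C10 against CRS. Vegfa, the main growth factor of endothelium, gave -0.46 ± 0.13 and Sphk1, which makes the ligand of S1pr1, -0.73 ± 0.24; neither passed.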

How the data were processed

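Poly(A) RNA from the nasal mucosa of mice was sequenced; the labels put the 18 libraries into CON, CRS and C10, 6 each. A deposited table gives unnormalized counts of reads for every gene, and the authors also deposited FPKM values. The submitters' processing notes name the build mm10; which aligner, counter and annotation were used is not given in the sources used here. Totals ran from 15883573 to 18433866 counts per library, and a floor of 3 counts equals 0.163 to 0.193 CPM, which covers counting error only. All columns were matched to a library; 0 were left over. No library repeats another: chi-square over degrees of freedom was at least 13.5 in all 153 pairs.

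Counts were tested in R 4.3.3 with edgeR 4.0.16 (filterByExpr by group, TMM, quasi-likelihood F-test, 1 mean per group, all 18 libraries in 1 fit), two-sided, with Benjamini-Hochberg adjustment over the 18291 genes kept; genes with an adjusted p under 0.05 are named as called. Library sizes for CPM were scaled by TMM, and SEs were obtained by dividing the log2 fold change by the root of F. The common biological coefficient of variation was 0.264. The procedure was tested on simulated counts, drawn for each gene separately. They held no shift of a whole library such as that of CRS 1, so the simulation does not cover such shifts. Alternatives were RLE size factors, no filter, at least 1 CPM in 6 libraries, a fit of only the 2 groups compared, a block for the replicate number, DESeq2 1.42.0, limma 3.58.1 as voom with quality weights or on log2(FPKM + 1) and log2(FPKM + 0.1), each library left out in turn, and CRS 2 and CRS 5 left out together. The endothelial genes, the partner and marker lists and the choice to leave out CRS 2 and CRS 5 were made with earlier results of these data known.

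By rule, library values are printed for the 10 endothelial genes of smallest p in CRS against CON, fold changes of the other 2 comparisons for the 8 of smallest p, and partner genes where called or among the 4 of smallest p; Cldn5, Ramp2, Sox17, Lyve1, Vwf, Egfl7 and Esam, whose ranges are also given, were singled out after their values were seen. Of the 50 partner genes, Gdf2 and Bmp10 were below the filter and Ccl21a, with 2 rows of that name, was left out. Promoter windows are RefSeq's on GRCm38.p6, with any window of Ecscr left out of the endothelial counts.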

Additional observations from a re-analysis of the deposited data

Results flagged for a closer look

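In each of the 3 groups of 6 libraries, each endothelial gene was checked for a single library whose gap to the nearest other value was large against the range of the group (Dixon's criterion at 95%). Of 102 groups of values, 13 held such a library, where chance gives about 1 in 20, and the genes are not independent of each other. In 8 of the 13 the library was CRS 1, the highest of CRS: Cdh5 at 90.5 CPM (the next CRS library had 47.2), Tie1 at 71.1 (37.0), Eng at 192 (94.9), Ptprb at 100.7 (49.9), Calcrl at 35.4 (17.0), Sox7 at 5.92 (3.14), Mmrn2 at 56.8 (27.0) and Vwf at 372 (118). Apold1 stood apart in CRS 4, at 9.73 CPM against 5.63 in the next CRS library, and in C10 6, at 7.90 against 4.03. Acvrl1 stood apart in C10 3, at 30.8 CPM against 22.0. In CON, Cldn5 stood apart in CON 5 at 84.3 CPM against 67.7, and Lyve1 in CON 3 at 9.71 against 3.69.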

How the results depend on the processing

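The medians of the 34 endothelial genes stayed below 0 in CRS and C10 against CON under every alternative run. In C10 against CRS the median (-0.08) turned to 0.10 with limma-voom and ranged from -0.19 to 0.15 with 1 library left out (0.15 without CRS 1). Endothelial genes called in CRS against CON numbered 0, but 1 with DESeq2, 12 with limma-voom and 0 to 13 with 1 library left out, the 13 without CRS 1; in C10 against CON they numbered 1 with DESeq2 and 1 with limma-voom. At an unadjusted p under 0.05, the 7 lower in CRS against CON became 12 with no filter, where 1476 of 35403 genes were lower. They became 18 with limma on FPKM at either pseudocount, where 1214 and 1250 of 18291 genes were. With 1 library left out they became 5 to 26, where 687 (without CRS 5) to 2400 (without CRS 1) of all genes were. The 17 in C10 against CON became 11 to 22 with 1 library left out, where 956 (without CON 5) to 1470 (without CRS 1) of all genes were lower. With only the 2 groups they became 25, where 1752 of 17777 genes were. In C10 against CRS, 1 lower and 1 higher became 6 and 0 without CRS 2 and CRS 5, 4 and 0 without C10 6, and 2 and 4 without CRS 1 or with limma-voom. Over all genes, lower and higher numbered 1819 and 1514 of 18691 without CRS 2 and CRS 5, and 1593 and 1016 of 18462 without C10 6. They numbered 1584 and 1442 of 18452 without CRS 1, and 1747 and 1969 of 18291 with limma-voom. With 6 libraries a group and these spreads, differences of the sizes seen mostly could not be told from the spread.

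Over all genes, the 1 call in CRS against CON became 3 with at least 1 CPM in 6 libraries, 0 with only the 2 groups, 179 with DESeq2, 940 with limma-voom, 2 and 2 with limma on log2(FPKM + 1) and log2(FPKM + 0.1), and 0 to 994 with 1 library left out. The 15 calls in C10 against CRS became 9 with only the 2 groups, 350 with DESeq2, 548 with limma-voom, 23 with limma on log2(FPKM + 1), 100 without CRS 2 and CRS 5, and 7 to 81 with 1 library left out. The 29 calls in C10 against CON became 17 with no filter, 161 with only the 2 groups, 318 with DESeq2, 252 with limma-voom, 74 without CRS 2 and CRS 5, and 3 to 110 with 1 library left out. The cause of these shifts was not tested.

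Same-numbered libraries did not deviate together in every pair. Their correlations were -0.62 to 0.23 between CRS and CON, -0.23 to 0.56 between C10 and CRS, and -0.45 to 0.21 between C10 and CON. Correlations over 0.1 numbered 3, 4 and 1 of 6, and a library correlated best with its own number in 1, 3 and 0 of 6. The numbers are not taken as pairs, and whether same-numbered libraries shared a batch was not tested. With the replicate number as a block, 0 endothelial genes passed in any comparison, with medians of -0.49, -0.05 and -0.52, and the calls over all genes were 0 in CRS against CON, 13 in C10 against CRS and 12 in C10 against CON.

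Signs were followed for all 34 genes in CRS against CON, and in each of the other 2 comparisons for the 8 of smallest p. Among these log2 fold changes 1348 alternatives kept the direction and the side of the threshold, 28 passed it and 24 changed sign. The sign of CRS against CON changed for Cldn5 (0.0027 with only the 2 groups, 0.034 with limma-voom, -0.090 to 0.075 with 1 library left out), Ramp2 (0.0024 with limma-voom, 0.14 without CRS 2 and CRS 5, -0.15 to 0.036 with 1 left out), Sox18 (0.040 without CRS 2 and CRS 5), Egfl7 (-0.15 with limma-voom, -0.010 and -0.019 with limma on log2(FPKM + 1) and log2(FPKM + 0.1), -0.13 to 0.19 with 1 left out) and Lyve1 (0.35 without CRS 2 and CRS 5, -0.72 to 0.37 with 1 left out), and, among the 8 followed, that of C10 against CRS for Robo4 (0.018 with limma-voom). Over all 34 genes, those below 0 in C10 against CRS numbered 22, 11 with limma-voom, 10 without CRS 1 and 31 without CRS 2 and CRS 5, so that more genes changed sign there than are named.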
